A study of Mus musculus with 24 samples.

Results

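The autophagy machinery is described here through 35 genes, given as a list of symbols for the steps of the pathway, from the 21965 genes of the deposited table. All 35 were found in the table, and all 35 passed the filter on low counts. They were measured by RNA sequencing in 24 libraries of mouse gastrocnemius, the large calf muscle. The labels give 6 groups of 4 libraries, a control group and groups titled for 1, 3, 5, 7 and 14 DPD, taken here to mean the number of days since the muscle was denervated (cut off from its motor nerve). No genetic change, drug, strain, age or sex is named for any group in the labels used here, and the labels do not say whether the control muscle was operated on. Whether each library stems from its own animal is not said either. The p-values therefore rest on the variation among libraries within groups, and part or all of it may be technical. The main fit pooled that variation over all 24 libraries. The series as a whole concerns signals that denervated muscle sends to neurons.

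Autophagy encloses part of the cytoplasm in a membrane, the autophagosome, which then fuses with a lysosome where its cargo is broken down. The ULK1 kinase complex starts the process, a complex around the lipid kinase VPS34 marks the membrane with a phosphoinositide, and ATG9A vesicles, ATG2 lipid transfer proteins and WIPI proteins feed and read that membrane. Ubiquitin-like conjugation enzymes then attach the ATG8 proteins (the LC3 and GABARAP families) to it, and receptors such as p62 bind both ATG8 proteins and cargo. Muscle that loses its nerve is known for rapid loss of fibre mass, in which autophagy and the proteasome both take part, and several autophagy genes are known targets of FoxO and of TFEB-type transcription factors.

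Library totals ran from 16082846 to 20696900 counts. Skeletal muscle fibre markers (12 genes) were abundant in every library, and their summed level was 277364 to 284512 CPM (TMM-scaled CPM, the count relative to library size) in control and 61246 to 61904 CPM at day 14. Protocol text in the labels names dorsal root ganglion neurons as the RNA source, whereas the tissue label is gastrocnemius. The 9 sensory neuron markers summed to at most 14.2 CPM in any library, with Scn9a and Scn10a at 0 in all control libraries. The libraries labelled day 1 and day 5 stood apart in T and B lymphocyte markers (12 genes), at 180 to 184 and 206 to 224 CPM against 4.02 to 4.96 CPM in control and at most 6.76 CPM at the other days. Those labelled day 3 stood apart in 8 genes of the fibre's denervation response, at 395 to 407 CPM, between the control range of 152 to 162 CPM and the 1162 CPM or more of all other days. Whether lymphoid tissue was taken along with the muscle at days 1 and 5, or whether the day 3 label is right, cannot be told from the files, and days are used below as labelled. In bulk tissue, fewer cells of a type and less RNA per cell cannot be told apart.

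Promoters are shown for 4 members that kept 1 direction at all 5 days under both scalings used below. Each is 300 bases from RefSeq on GRCm38.p6, with 250 bases before the annotated start and 50 after it, written 5′ to 3′ on the strand of the gene. Ulk1 (chr5:110810032-110810331, minus strand) and Gabarapl1 (chr6:129532942-129533241, plus strand) are the members that were lower throughout. Atg5 (chr10:44268089-44268388, plus strand) and Atg3 (chr16:45158579-45158878, plus strand) belong to the 6 members that were higher throughout. Capitals mark CACGTG, the E-box read by TFEB, TFE3 and other basic helix-loop-helix factors, and in Atg3 also the longer form TCACGTGA.
Ulk1: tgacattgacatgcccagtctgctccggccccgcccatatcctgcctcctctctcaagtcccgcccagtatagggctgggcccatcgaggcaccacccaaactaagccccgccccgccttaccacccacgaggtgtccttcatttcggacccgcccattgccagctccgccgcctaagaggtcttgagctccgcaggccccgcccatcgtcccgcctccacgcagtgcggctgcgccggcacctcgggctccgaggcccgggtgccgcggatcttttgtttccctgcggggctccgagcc
Gabarapl1: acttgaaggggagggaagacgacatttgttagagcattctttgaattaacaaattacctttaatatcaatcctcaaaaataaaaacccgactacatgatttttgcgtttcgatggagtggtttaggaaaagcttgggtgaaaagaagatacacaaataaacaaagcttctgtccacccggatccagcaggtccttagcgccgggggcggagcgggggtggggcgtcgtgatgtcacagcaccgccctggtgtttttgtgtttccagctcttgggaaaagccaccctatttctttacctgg
Atg5: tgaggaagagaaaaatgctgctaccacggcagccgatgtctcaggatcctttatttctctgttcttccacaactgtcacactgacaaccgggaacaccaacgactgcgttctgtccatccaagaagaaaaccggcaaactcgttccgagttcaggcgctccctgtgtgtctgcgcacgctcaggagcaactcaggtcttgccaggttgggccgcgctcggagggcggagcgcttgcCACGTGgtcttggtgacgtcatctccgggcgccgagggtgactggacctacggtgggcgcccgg
Atg3: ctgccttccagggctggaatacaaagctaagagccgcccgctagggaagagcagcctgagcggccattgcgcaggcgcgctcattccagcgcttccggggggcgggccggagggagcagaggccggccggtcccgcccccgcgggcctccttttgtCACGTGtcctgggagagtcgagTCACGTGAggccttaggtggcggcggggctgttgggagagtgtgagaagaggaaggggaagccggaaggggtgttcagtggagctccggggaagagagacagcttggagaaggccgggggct
The table used here matched 29 of the 35 members, with 35 promoters in all because some genes have more than 1 start. CACGTG, which is its own reverse complement, was found in 6 of the 35 (17.1%), those of Atg7, Lamp1, Atg5, Atg14, Rubcn and Atg3, and in 7.15% of all 32851 promoters of that length. The matching windows of Atg7 (chr6:114670846-114671145), Atg14 (chr14:47568385-47568684) and Rubcn (chr16:32868317-32868616) lie inside the annotated gene, not at its outer start. Rubcn also has a promoter without the motif. TCACGTGA, which contains CACGTG, was found in the promoter of Atg3 and in 0.974% of all promoters. GTAAACA, a form of the FoxO motif, was searched on both strands. None of the 35 member promoters held it, beside 3.65% of all promoters. With so few promoters and so low a share, its absence does not set the members apart. Other forms of the motif were not searched, so FoxO sites may be present. Of the members with CACGTG, with TMM, Atg5, Atg3 and Rubcn were higher than control at all 5 days, Atg7 at 3 days, Lamp1 was higher at 2 and lower at 2, and Atg14 was lower at all 5. Gabarap, also higher at all 5 days, has a promoter in the table without it. Atg5 and Atg3 are printed because they hold the motif, so the 4 sequences do not show how often it goes with a direction. A match describes letters in this window and no binding was measured.

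The first comparison asks which members differed from control at each day, and the 5 comparisons share the same 4 control libraries. A member is called higher or lower where edgeR's quasi-likelihood test over all 14246 tested genes gave a Benjamini-Hochberg adjusted p below 0.05. At day 1, 10 members were higher and 24 lower, where 38.1% of all tested genes were higher and 36.2% lower. At day 3 the split was 18 higher and 11 lower (34.5% and 35.7% of all genes). Day 5 gave 13 higher and 16 lower (38.5% and 35.8%), day 7 gave 10 and 22 (40.2% and 36.7%), and day 14 gave 11 and 22 (39.2% and 35.3%). Median log2 fold changes of the 35 members were -0.27, 0.10, -0.13, -0.26 and -0.29 at days 1, 3, 5, 7 and 14, beside 0.03, -0.03, 0.03, 0.05 and 0.06 over all tested genes. With TMM day 3 was the day with most members higher, and days 1, 7 and 14 had 22 to 24 of 35 lower. Every member was called in the test over the 6 groups, as were 96.7% of all tested genes, so that call sets no member apart.

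These splits depend on the scaling. TMM sets the level of each library by the bulk of genes, whereas scaling by library totals alone moved the log2 fold change of the median gene up by 0.581 (day 1), 0.37 (day 3), 0.644 (day 5), 0.764 (day 7) and 0.715 (day 14). With totals alone, 22, 27, 28, 22 and 23 members were higher and 11, 5, 5, 10 and 9 lower at those days. Of all tested genes 70.5, 54.9, 72.2, 74.4 and 74.4% were then higher and 13.3, 18.2, 11.8, 12.2 and 11.7% lower. The members thus held a smaller share of higher calls than all genes at days 1, 7 and 14 under either scaling. All members called higher with TMM were also higher with totals, whereas 11 of 24, 5 of 11, 5 of 16, 10 of 22 and 9 of 22 members called lower stayed lower. Values below are on the TMM scale, relative to the median gene, and the value with library totals is given wherever the sign turns. Becn1, Rubcn, Atg5, Atg3, Map1lc3a and Gabarap were higher than control at all 5 days under both scalings. Ulk1 and Gabarapl1 were lower at all 5 days under both, and Ulk2, Atg14, Wipi1 and Atg9a were lower at all 5 days with TMM but not with totals. Another 16 members were higher at some days and lower at others. The share of all tested genes with these patterns over the 5 days was not counted, so the patterns do not set the members apart from other genes. Fits of the 2 compared groups alone gave the same splits except 23 lower members at day 7.

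**Figure D1:**
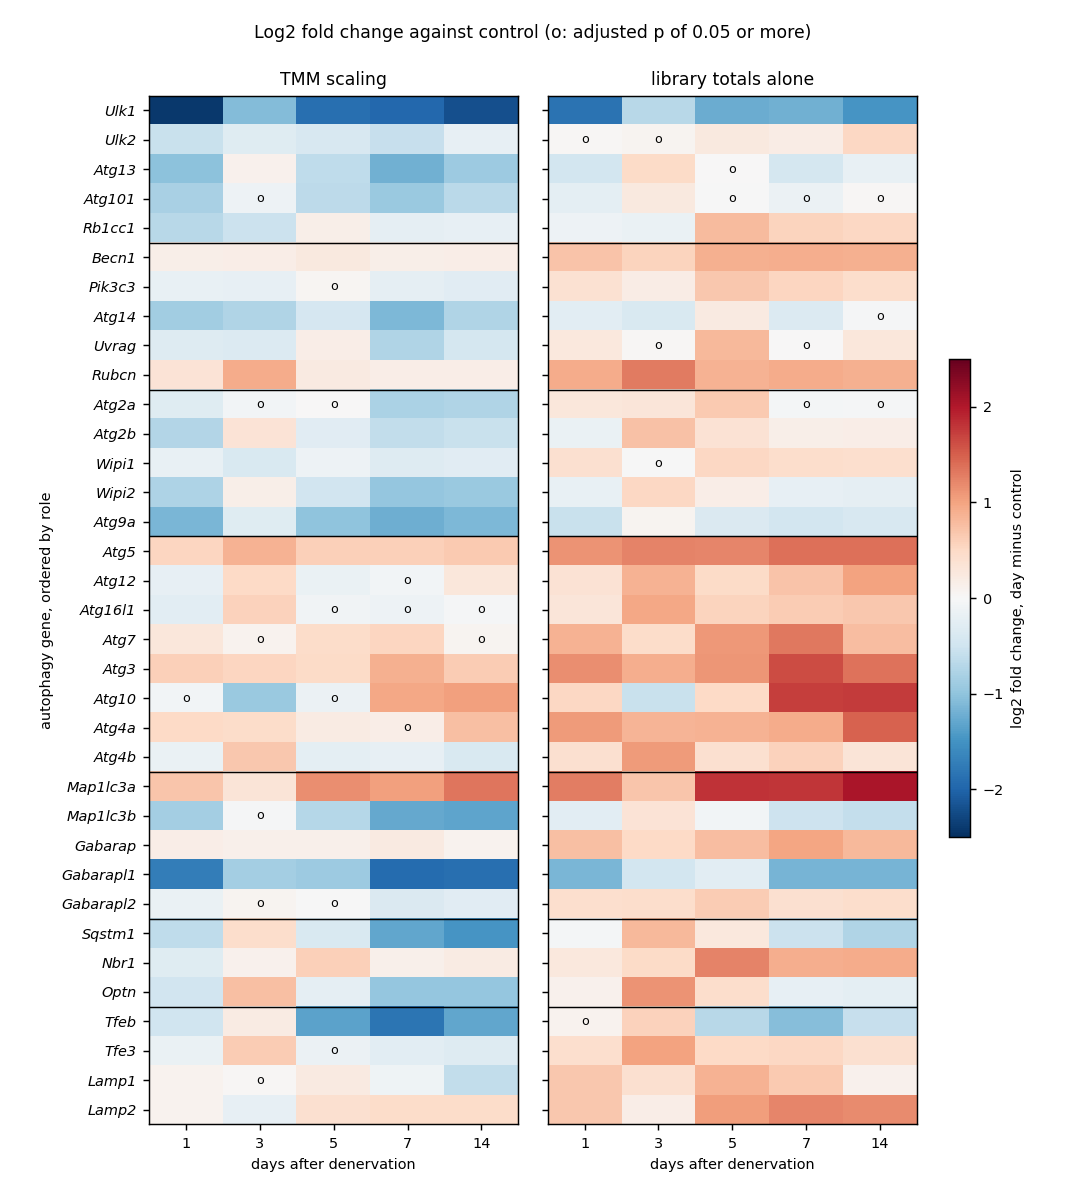
Log2 fold change against control of the 35 members, in order of role from the kinase complex (top) to the lysosome (bottom), at each day after denervation, with TMM scaling (left) and library totals alone (right); circles mark an adjusted p of 0.05 or more. Ulk1 and Gabarapl1 are the rows that stay blue in both panels, and the right panel is redder because totals move the median gene up by 0.37 to 0.764.

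In the initiation complex, the kinase gene Ulk1 showed the widest range of all 35 members. Ulk1 (chr5:110784488-110810097, minus strand) encodes the kinase that receives signals from mTORC1 and AMPK. Its levels, given in rising order within each group here and below, were 373, 381, 387 and 388 CPM in control, 69.0, 70.9, 71.3 and 74.4 at day 1, 175, 179, 182 and 189 at day 3, 97.5, 102, 105 and 109 at day 5, 94.1, 94.9, 99.0 and 102 at day 7, and 82.5, 83.3, 84.2 and 85.9 at day 14. No denervated library overlapped the control libraries, and day 3 was the highest of the 5 days. The fall was 5.36-fold at day 1 (log2 fold change -2.42 ± 0.033, adjusted p = 1.2e-45), 2.11-fold at day 3 (log2 fold change -1.08 ± 0.03, adjusted p = 1.5e-32) and 4.55-fold at day 14 (log2 fold change -2.19 ± 0.032, adjusted p = 1.9e-44). With library totals the log2 fold changes ran from -1.84 at day 1 to -0.70 at day 3.

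Ulk2 (chr11:61775649-61855073, minus strand), the closest relative of Ulk1, moved far less. It stood at 98.2, 102, 102 and 105 CPM in control, 68, 68.1, 70.1 and 71.7 at day 1, 80.3, 81.6, 83.3 and 84.2 at day 3, 75.5, 76.9, 77.8 and 78.1 at day 5, 64.9, 68.5, 69.5 and 70.9 at day 7, and 84.8, 88.1, 88.8 and 90.6 at day 14. All denervated libraries lay below all control libraries, with log2 fold changes between -0.57 ± 0.035 (day 7) and -0.21 ± 0.035 (day 14), but library totals turned the sign at all 5 days (0.03, 0.07, 0.24, 0.19 and 0.51). Atg13 (chr2:91674618-91710576, minus strand) encodes the subunit that links ULK1 to its scaffold. Its levels were 102, 110, 113 and 113 CPM in control, 49.9, 52.2, 55.2 and 56.0 at day 1, 113, 115, 121 and 122 at day 3, 69.9, 70, 70.2 and 70.4 at day 5, 45.0, 47.2, 48.6 and 49.5 at day 7, and 54.9, 58.4, 59.0 and 62.5 at day 14. Control and day 3 overlapped in their ranges, and the other 4 days lay below both. Atg13 was 2.30-fold lower at day 7 (log2 fold change -1.20 ± 0.043, adjusted p = 1.6e-28) and slightly higher at day 3 (log2 fold change 0.11 ± 0.04, adjusted p = 0.017), with a value of 0.01 at day 5 on library totals.

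The partner genes of the complex followed Ulk1 less closely. Atg101, which stabilises ATG13, stood at 25.6 ± 2.13 CPM (mean ± SD, n = 4) in control and 13.5 ± 1.09 CPM at day 7 (log2 fold change -0.92 ± 0.081, adjusted p = 4.0e-14), and at day 3 its value of -0.12 ± 0.077 did not pass (adjusted p = 0.15). With library totals Atg101 passed as lower at day 1 (-0.24) and as higher at day 3 (0.25). Rb1cc1, the scaffold also called FIP200, stood at 57.9 ± 2.23 CPM in control, 35.7 ± 2.18 CPM at day 1 (log2 fold change -0.70 ± 0.054, adjusted p = 9.9e-16) and 63.8 ± 2.24 CPM at day 5 (log2 fold change 0.14 ± 0.051, adjusted p = 0.013). At days 7 and 14 Rb1cc1 was lower with TMM (-0.22 and -0.20) and higher with library totals (0.55 and 0.51). Of the 5 genes of the complex, 5, 3, 4, 5 and 5 were lower at days 1, 3, 5, 7 and 14 with TMM. Over those days 35.3 to 36.7% of all tested genes were lower. Under both scalings 4, 2, 1, 2 and 2 of the 5 were lower, and with library totals 11.7 to 18.2% of all tested genes were lower.

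**Figure D2:**
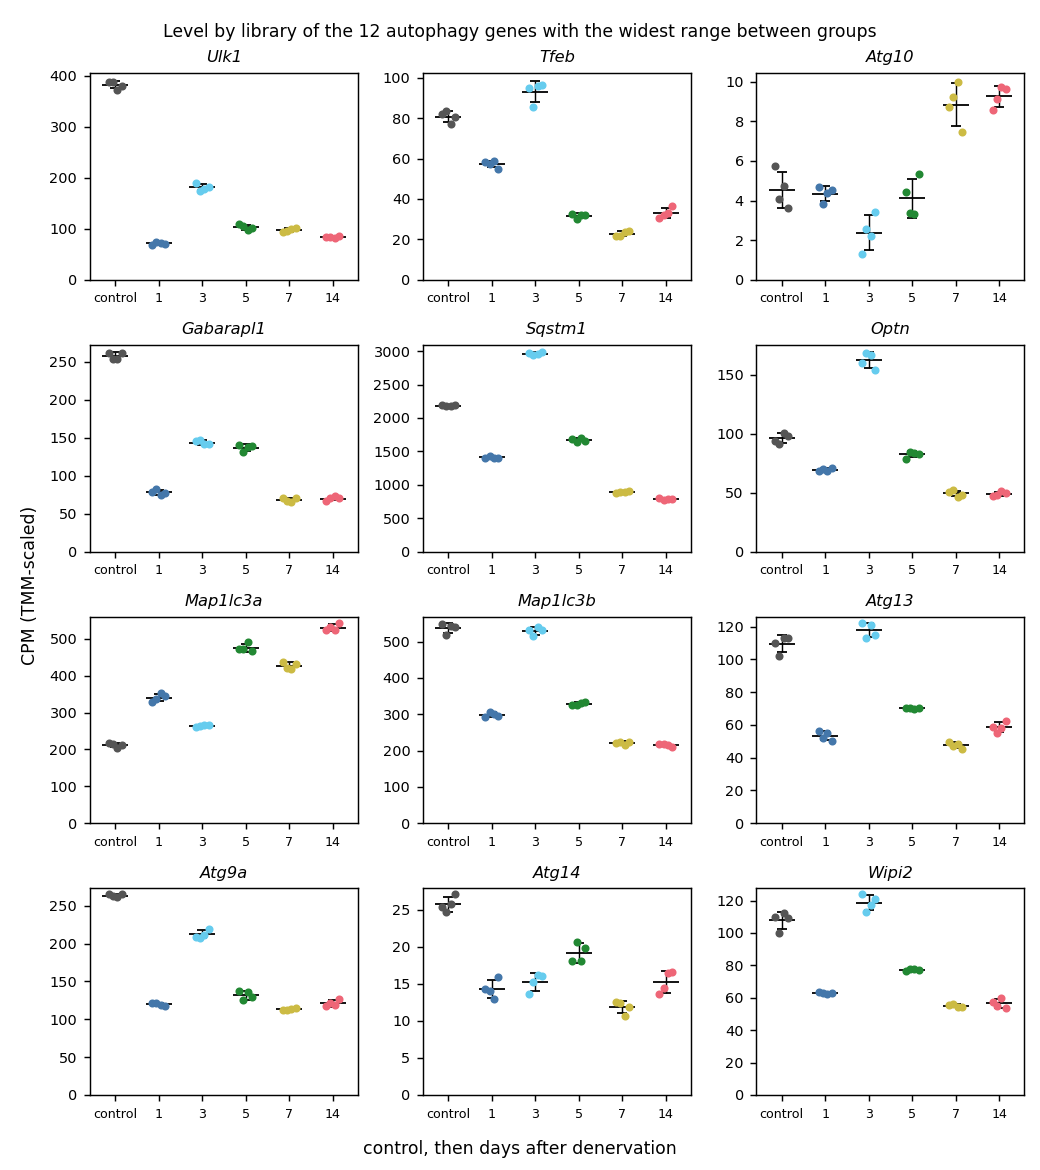
CPM (TMM-scaled, linear axes from 0) by library of the 12 members with the widest range between group means, with points for libraries and bars for the mean and SD of 4. Ulk1 falls from 373 to 388 CPM in control to 82.5 to 85.9 CPM at day 14, whereas Map1lc3a climbs from 204 to 217 CPM to 523 to 543 CPM.

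With TMM the lipid kinase complex gave small changes in its core and larger ones in its interchangeable subunits. Becn1, the scaffold Beclin 1, rose from 58.1 ± 4.14 CPM to between 63.9 ± 1.59 and 68.6 ± 2.97 CPM, with log2 fold changes of 0.14 ± 0.043 to 0.24 ± 0.043 (adjusted p = 0.0045 and 3.7e-06). The highest control library of Becn1 (63.4 CPM) overlapped the libraries of days 1, 3 and 7. Pik3c3, the gene of the catalytic subunit VPS34, stood at 34.5 ± 2.61 CPM in control and 28.2 ± 2.50 CPM at day 14 (log2 fold change -0.29 ± 0.064, adjusted p = 1.0e-04). It was lower at days 1, 3, 7 and 14 with TMM and higher at each of them with library totals (0.39, 0.18, 0.54 and 0.43). Neither core gene moved by more than 1.22-fold with TMM. With library totals the values over the 5 days were 0.55 to 0.91 for Becn1. They were -0.38 to 0.22 for Atg14 and 0.01 to 0.81 for Uvrag, so the contrast depends on the scaling.

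ATG14 directs the complex to autophagosome formation, and UVRAG directs it to endosomes and autophagosome maturation. Atg14 (chr14:47540893-47570649, minus strand) stood at 24.7, 25.4, 25.8 and 27.1 CPM in control, 12.9, 14.0, 14.3 and 15.9 at day 1, 13.6, 15.3, 16.1 and 16.2 at day 3, 18.1, 18.1, 19.8 and 20.7 at day 5, 10.7, 11.9, 12.4 and 12.6 at day 7, and 13.7, 14.4, 16.5 and 16.6 at day 14. All denervated libraries were below control, lowest at day 7 (log2 fold change -1.12 ± 0.082, adjusted p = 1.2e-16) and least changed at day 5 (log2 fold change -0.42 ± 0.078, adjusted p = 5.2e-06), where library totals gave 0.22. Uvrag fell from 39.4 ± 1.61 CPM to 23.3 ± 2.54 CPM at day 7 (log2 fold change -0.76 ± 0.07, adjusted p = 1.8e-13), where library totals gave 0.01. At day 5 Uvrag stood at 44.1 ± 3.77 CPM, 0.16 ± 0.065 above control (adjusted p = 0.022). With library totals Uvrag was above control at days 1 and 14 (0.26 and 0.28) and at 0.02 at day 3. Rubcn, which encodes Rubicon, an inhibitor of the complex and of autophagosome maturation, moved the other way. It stood at 50.4 ± 1.24 CPM in control and 95.5 ± 4.05 CPM at day 3, 1.90-fold higher (log2 fold change 0.92 ± 0.043, adjusted p = 8.6e-24), and stayed above control without overlap at all days, by 0.16 to 0.35 at the other days.

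Among the genes of membrane supply, Atg9a changed most. Atg9a (chr1:75180860-75192196, minus strand) encodes the lipid scramblase of the vesicles that seed the autophagosome. Its levels were 261, 263, 265 and 265 CPM in control, 118, 119, 121 and 121 at day 1, 208, 209, 212 and 220 at day 3, 125, 129, 136 and 137 at day 5, 112, 112, 114 and 115 at day 7, and 117, 119, 122 and 127 at day 14. Day 3 lay between control and the other 4 days, and none of the denervated libraries reached control. Atg9a was 2.21-fold lower at day 1 (log2 fold change -1.14 ± 0.029, adjusted p = 3.9e-34) and 2.33-fold lower at day 7 (log2 fold change -1.22 ± 0.029, adjusted p = 1.9e-35), and at day 3 library totals turned its value from -0.31 to 0.06.

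The paired ATG2 genes encode lipid transfer proteins with overlapping roles. Atg2a (chr19:6241668-6262335, plus strand) stood at 52.5, 56.5, 59.7 and 60.4 CPM in control, 45.3, 46.3, 46.6 and 47.2 at day 1, 52.9, 54.4, 54.8 and 56.1 at day 3, 53.5, 56.8, 58.7 and 61.2 at day 5, 32.1, 33.0, 33.1 and 33.3 at day 7, and 33.0, 33.9, 34.4 and 34.8 at day 14. Its control libraries overlapped those of days 3 and 5, and it was lower at days 1, 7 and 14, by -0.80 ± 0.048 at day 7 (adjusted p = 6.8e-20). With library totals Atg2a was above control at days 1, 3 and 5 (0.28, 0.31 and 0.65). Atg2b (chr12:105616136-105685211, minus strand) stood at 61.2, 62.2, 62.6 and 63.6 CPM in control, 35.5, 36.8, 38.3 and 38.5 at day 1, 75.3, 79.2, 81.2 and 82.7 at day 3, 47.7, 50.1, 52.7 and 53.8 at day 5, 40.1, 40.4, 40.5 and 41.2 at day 7, and 41.6, 41.6, 42.9 and 43.5 at day 14. Day 3 lay above control (log2 fold change 0.35 ± 0.042, adjusted p = 4.6e-10), and the other 4 days lay below it, by -0.74 ± 0.045 at day 1 (adjusted p = 1.2e-19). At days 5, 7 and 14 the values of Atg2b with library totals were 0.36, 0.14 and 0.16.

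WIPI proteins bind the phosphoinositide made by VPS34, and WIPI2 recruits ATG16L1. Wipi2 (chr5:142627698-142670588, plus strand) stood at 99.7, 109, 110 and 112 CPM in control, 62.6, 62.7, 63.0 and 63.5 at day 1, 113, 117, 121 and 124 at day 3, 76.7, 77.0, 77.5 and 77.6 at day 5, 54.1, 54.3, 55.5 and 56.0 at day 7, and 53.6, 54.8, 57.5 and 59.9 at day 14. It was 1.96-fold lower at day 7 (log2 fold change -0.97 ± 0.039, adjusted p = 1.5e-26) and above control at day 3 (log2 fold change 0.14 ± 0.037, adjusted p = 8.4e-04), and library totals turned the day 5 value from -0.48 to 0.16. Wipi1 (chr11:109573331-109611967, minus strand) stood at 77.1, 80.8, 83.1 and 85.3 CPM in control, 71.1, 71.2, 72.1 and 73.5 at day 1, 60.2, 60.4, 63.5 and 64.9 at day 3, 73.5, 73.5, 74.8 and 76.0 at day 5, 62.5, 63.3, 66.7 and 68.5 at day 7, and 63.3, 64.8, 67.3 and 70.6 at day 14. Its lowest libraries were those of day 3 (log2 fold change -0.39 ± 0.041, adjusted p = 1.9e-11), the opposite of Wipi2. Wipi1 was below control at all 5 days with TMM, and library totals placed it above control at days 1, 5, 7 and 14 (0.40, 0.51, 0.44 and 0.42).

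Among the conjugation enzymes more members were higher than lower at each day. Of these 8 genes, 4, 6, 4, 4 and 5 were higher at days 1, 3, 5, 7 and 14, and 3, 1, 2, 1 and 1 were lower, beside 34.5 to 40.2% higher and 35.3 to 36.7% lower of all tested genes. Their median log2 fold changes were 0.11, 0.51, 0.06, 0.35 and 0.46. With library totals all 8 were higher at days 1, 5, 7 and 14, and 7 at day 3. Of all tested genes 70.5, 54.9, 72.2, 74.4 and 74.4% were then higher at days 1, 3, 5, 7 and 14. Atg5, whose product is joined to ATG12 in the conjugate that directs ATG8 lipidation, rose from 14.5 ± 0.656 CPM to 26.4 ± 2.03 CPM at day 3 (log2 fold change 0.86 ± 0.079, adjusted p = 1.7e-13) and 22.8 ± 1.17 CPM at day 14 (log2 fold change 0.66 ± 0.079, adjusted p = 3.4e-10). Atg3, the E2-like enzyme that hands ATG8 proteins to lipid, rose from 21.3 ± 1.50 CPM to 39.2 ± 1.80 CPM at day 7, 1.84-fold (log2 fold change 0.88 ± 0.066, adjusted p = 1.9e-16). Neither gene overlapped control at any day.

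ATG7 is the E1-like enzyme of both conjugation systems. Atg7 stood at 17.3 ± 2.95 CPM in control, 23.6 ± 2.11 CPM at day 5 (log2 fold change 0.45 ± 0.1, adjusted p = 1.0e-04) and 25.2 ± 1.63 CPM at day 7 (log2 fold change 0.54 ± 0.099, adjusted p = 3.3e-06). Its values at day 3 (0.08 ± 0.1, adjusted p = 0.51) and day 14 (0.07 ± 0.1, adjusted p = 0.56) did not pass. Atg10 (chr13:90935356-91223968, minus strand), the E2-like enzyme for ATG12, had the lowest level of all members per transcript length. Its libraries stood at 3.61, 4.08, 4.74 and 5.74 CPM in control, 3.82, 4.39, 4.53 and 4.66 at day 1, 1.32, 2.23, 2.59 and 3.40 at day 3, 3.31, 3.37, 4.41 and 5.35 at day 5, 7.45, 8.71, 9.23 and 9.99 at day 7, and 8.59, 9.10, 9.63 and 9.75 at day 14. Days 7 and 14 lay above every other group, 1.95-fold (log2 fold change 0.96 ± 0.16, adjusted p = 8.2e-07) and 2.04-fold (log2 fold change 1.03 ± 0.16, adjusted p = 2.2e-07) above control, and day 3 lay below control (log2 fold change -0.92 ± 0.2, adjusted p = 5.9e-05). At days 1 and 5 Atg10 did not pass with TMM, and library totals moved its values from -0.06 and -0.14 to 0.52 and 0.50.

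Atg12, whose product is joined to ATG5, and Atg16l1, whose product binds that conjugate, shared a peak at day 3. Atg12 stood at 39.0 ± 2.91 CPM in control and 55.0 ± 2.08 CPM at day 3 (log2 fold change 0.49 ± 0.052, adjusted p = 1.4e-11), and Atg16l1 at 33.5 ± 2.03 and 50.1 ± 2.26 CPM (log2 fold change 0.58 ± 0.061, adjusted p = 1.1e-11). Both were lower at day 1 with TMM (-0.21 and -0.27) and higher with library totals (0.37 and 0.31). At day 5 Atg12 was also lower with TMM (-0.17) and higher with totals (0.47), and at day 14 it was higher (log2 fold change 0.29 ± 0.052, adjusted p = 3.4e-06). At day 7 Atg12 did not pass with TMM and was higher with totals (0.71). Atg16l1 did not pass at days 5, 7 and 14 (-0.09, -0.13 and -0.03) and was higher there with totals (0.56, 0.63 and 0.68).

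The ATG4 proteases cut ATG8 proteins before conjugation and free them afterwards. Atg4a (chrX:140956907-141164270, plus strand) stood at 19.6, 20.3, 20.5 and 22.6 CPM in control, 27.1, 27.3, 30.1 and 32.0 at day 1, 27.3, 27.5, 27.7 and 31.6 at day 3, 21.0, 23.5, 25.0 and 26.5 at day 5, 21.9, 23.1, 23.5 and 24.3 at day 7, and 32.2, 34.4, 36.7 and 37.4 at day 14. The libraries of day 14 were the highest (log2 fold change 0.76 ± 0.074, adjusted p = 6.8e-13), and day 7 missed the threshold (log2 fold change 0.16 ± 0.076, adjusted p = 0.051). Atg4b (chr1:93751500-93790610, plus strand), the main protease of the family, stood at 35.7, 41.8, 44.0 and 44.7 CPM in control, 35.2, 37.3, 37.6 and 37.7 at day 1, 66.3, 66.3, 66.5 and 67.6 at day 3, 33.7, 34.0, 35.1 and 38.0 at day 5, 34.3, 35.2, 36.5 and 38.9 at day 7, and 30.0, 30.0, 33.1 and 33.6 at day 14. Day 3 stood alone above all other groups (log2 fold change 0.68 ± 0.055, adjusted p = 3.7e-15), and day 14 was the lowest (log2 fold change -0.39 ± 0.058, adjusted p = 8.0e-08). At days 1, 5, 7 and 14 Atg4b was lower with TMM and higher with library totals (0.41, 0.40, 0.57 and 0.33).

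Within the ATG8 family the genes moved in opposite directions. Map1lc3a (chr2:155276297-155278073, plus strand) encodes LC3A. Its levels were 204, 211, 214 and 217 CPM in control, 329, 337, 344 and 353 at day 1, 260, 263, 265 and 265 at day 3, 466, 471, 472 and 492 at day 5, 418, 422, 432 and 437 at day 7, and 523, 524, 531 and 543 at day 14. Every denervated library lay above control, with day 3 the lowest of the 5 days and day 14 the highest. The rise was 1.25-fold at day 3 (log2 fold change 0.32 ± 0.026, adjusted p = 4.2e-15) and 2.51-fold at day 14 (log2 fold change 1.33 ± 0.025, adjusted p = 5.9e-40).

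Map1lc3b (chr8:121590361-121598760, plus strand) encodes LC3B, the protein most often followed as an autophagosome marker. It stood at 518, 541, 544 and 549 CPM in control, 293, 296, 300 and 307 at day 1, 515, 531, 532 and 540 at day 3, 325, 326, 332 and 333 at day 5, 216, 221, 223 and 225 at day 7, and 211, 215, 217 and 219 at day 14. Control and day 3 overlapped (log2 fold change -0.02 ± 0.022, adjusted p = 0.37), and the other 4 days lay below both. Map1lc3b was 1.80-fold lower at day 1 (log2 fold change -0.85 ± 0.023, adjusted p = 2.1e-33) and 2.50-fold lower at day 14 (log2 fold change -1.32 ± 0.023, adjusted p = 4.7e-41). With library totals it remained lower at days 1, 5, 7 and 14 (-0.27, -0.06, -0.52 and -0.60), and day 3 became higher (0.35).

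Gabarapl1 (chr6:129533160-129542346, plus strand), a FoxO target in muscle, showed the largest fall of the family. Its levels were 253, 253, 261 and 262 CPM in control, 74.6, 76.9, 78.5 and 82.4 at day 1, 141, 141, 145 and 147 at day 3, 131, 138, 139 and 140 at day 5, 64.6, 66.3, 70 and 70.1 at day 7, and 66.7, 69.9, 70.2 and 72.6 at day 14. All denervated libraries were below control, and days 3 and 5 lay above days 1, 7 and 14. The fall was 3.29-fold at day 1 (log2 fold change -1.72 ± 0.033, adjusted p = 1.9e-39), 1.79-fold at day 3 (log2 fold change -0.84 ± 0.031, adjusted p = 1.8e-27) and 3.79-fold at day 7 (log2 fold change -1.92 ± 0.033, adjusted p = 1.9e-41). Library totals gave -1.14, -0.46 and -1.16 at those days.

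Gabarap (chr11:69991143-69994951, plus strand) was nearly level with TMM. It stood at 247, 250, 251 and 256 CPM in control, 275, 277, 284 and 295 at day 1, 265, 275, 278 and 278 at day 3, 267, 267, 283 and 284 at day 5, 289, 291, 294 and 295 at day 7, and 262, 265, 271 and 271 at day 14. No denervated library overlapped control, yet the rise was at most 1.16-fold (log2 fold change 0.22 ± 0.026, adjusted p = 2.3e-10). In the deposited TPM, which does not use TMM, Gabarap went from 223 ± 1.70 in control to 471 ± 8.98 at day 7. Gabarapl2 (chr8:111940703-111953612, plus strand), also called GATE-16, stood at 122, 129, 130 and 135 CPM in control, 114, 114, 115 and 117 at day 1, 128, 132, 135 and 144 at day 3, 125, 129, 130 and 130 at day 5, 97.7, 100, 101 and 105 at day 7, and 104, 106, 107 and 107 at day 14. It was lower at days 1, 7 and 14 with TMM, by -0.36 ± 0.034 at day 7 (adjusted p = 3.9e-13), and higher at those days with library totals (0.42, 0.41 and 0.43). Its day 5 value was -0.01 ± 0.033 with TMM (adjusted p = 0.88) and 0.64 with totals.

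The make-up of the family can be read from the deposited TPM, which is set per transcript length and does not use TMM. Map1lc3a held 22.2 ± 0.552% of the summed TPM of the 5 genes in control (SD, n = 4) and 39.0 ± 0.483, 27.1 ± 0.511, 44.0 ± 0.588, 45.9 ± 0.560 and 53.6 ± 0.308% at days 1, 3, 5, 7 and 14. Map1lc3b held 30.2 ± 0.476% in control and 20 ± 0.397, 31.0 ± 0.324, 19.2 ± 0.403, 16.1 ± 0.306 and 12.4 ± 0.277% at those days. Gabarapl1 went from 16.8 ± 0.438% to 4.50 ± 0.303% at day 14, and Gabarap held 21.1 to 26.8% in every group. The largest share thus passed from Map1lc3b in control to Map1lc3a at days 1, 5, 7 and 14, while at day 3 Map1lc3b again held the largest share. The summed TPM of the 5 genes was 1022 ± 14.4 in control and 1813 ± 17.6 at day 14, a rise that includes the shift of scale described above.

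**Figure D3:**
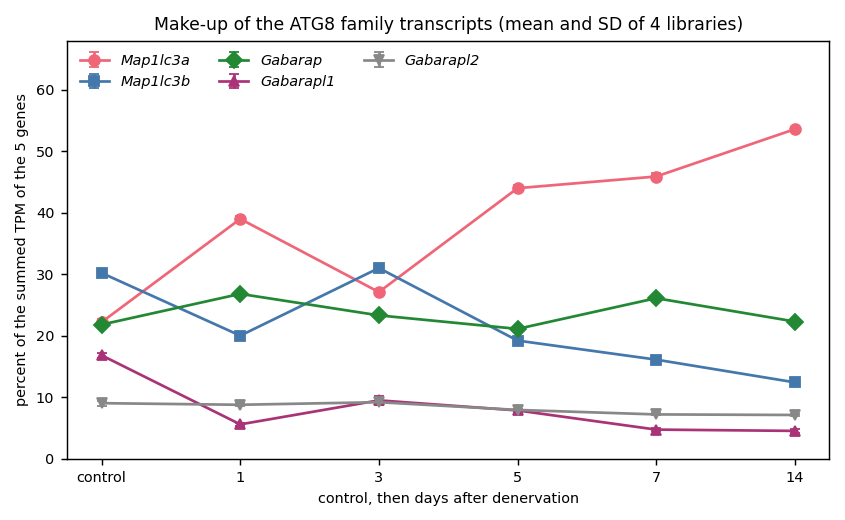
Share of each ATG8 family gene in the summed TPM of the 5 genes (percent, mean and SD of 4 libraries, linear axis from 0) in control and at each day after denervation. Map1lc3a goes from 22.2% in control to 53.6% at day 14 with a dip to 27.1% at day 3, and Gabarapl1 goes from 16.8 to 4.50%.

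Cargo receptors shared a direction at days 1 and 3 with TMM and parted later. With TMM all 3 were lower at day 1 and all 3 higher at day 3, beside 36.2% lower and 34.5% higher of all tested genes. Library totals left Sqstm1 lower at day 1 (-0.05) and turned Nbr1 and Optn higher. Sqstm1 (chr11:50199366-50210827, minus strand) encodes p62, which carries ubiquitinated proteins to autophagosomes and is itself degraded there. Its levels were 2172, 2185, 2191 and 2198 CPM in control, 1401, 1403, 1407 and 1429 at day 1, 2939, 2954, 2972 and 2983 at day 3, 1644, 1662, 1691 and 1694 at day 5, 884, 889, 894 and 904 at day 7, and 777, 780, 787 and 802 at day 14. No group overlapped another, and the order was day 3, control, day 5, day 1, day 7 and day 14. Sqstm1 was 1.35-fold higher at day 3 (log2 fold change 0.44 ± 0.015, adjusted p = 1.5e-28) and 2.78-fold lower at day 14 (log2 fold change -1.48 ± 0.016, adjusted p = 6.2e-50). Library totals gave 0.81 and -0.76 at those days and turned day 5 from -0.39 to 0.26.

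Optn (chr2:5020642-5064051, minus strand) encodes optineurin, a receptor for mitochondria and bacteria. It stood at 91.5, 94.0, 98.5 and 101 CPM in control, 68, 68.8, 70 and 71.0 at day 1, 154, 160, 167 and 169 at day 3, 78.8, 83.1, 83.7 and 84.8 at day 5, 46.5, 48.3, 50.2 and 52.3 at day 7, and 47.5, 48.3, 49.7 and 51.2 at day 14. The day 3 libraries stood above control (log2 fold change 0.76 ± 0.038, adjusted p = 9.9e-23), and those of days 7 and 14 were the lowest (log2 fold change -0.96 ± 0.041, adjusted p = 2.1e-25 and log2 fold change -0.97 ± 0.041, adjusted p = 2.1e-25). At days 1 and 5 library totals turned the values from -0.47 and -0.22 to 0.11 and 0.43. Nbr1, whose product resembles p62 in its domains, stood at 174 ± 4.77 CPM in control and 141 ± 3.31 CPM at day 1 (log2 fold change -0.31 ± 0.029, adjusted p = 6.3e-13), where library totals gave 0.27. At day 3 Nbr1 was only 0.10 above control, and its libraries (178 to 194 CPM) overlapped those of control (171 to 181 CPM). Nbr1 peaked at 264 ± 7.75 CPM at day 5 (log2 fold change 0.60 ± 0.028, adjusted p = 1.4e-23). It remained higher at days 7 and 14 (0.13 and 0.20), when Sqstm1 and Optn were lower.

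The lysosomal members are the transcription factor genes Tfeb and Tfe3, which drive lysosomal and autophagy genes, and the membrane glycoprotein genes Lamp1 and Lamp2. Tfeb (chr17:47737030-47792419, plus strand) stood at 77.2, 80.4, 81.9 and 83.6 CPM in control, 54.9, 57.5, 58.1 and 58.6 at day 1, 85.4, 94.9, 95.8 and 96.5 at day 3, 30.2, 31.9, 32.3 and 32.8 at day 5, 21.8, 21.8, 23.6 and 24 at day 7, and 30.5, 32.2, 33.3 and 36.5 at day 14. It was above control at day 3 and far below it at days 5, 7 and 14, with no overlap at any day. Tfeb was 3.55-fold lower at day 7 (log2 fold change -1.83 ± 0.052, adjusted p = 1.3e-32) and 2.44-fold lower at day 14 (log2 fold change -1.29 ± 0.049, adjusted p = 2.8e-27), and library totals gave -1.06 and -0.57. At day 1 the value of -0.50 became 0.09 with totals and was not called there.

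Tfe3 (chrX:7762560-7775202, plus strand) stood at 26.8, 29.8, 31.1 and 31.3 CPM in control, 24.6, 26.0, 27.3 and 28.4 at day 1, 45.5, 45.6, 45.8 and 47.4 at day 3, 23.3, 26.9, 28.6 and 29.0 at day 5, 22.3, 25.2, 25.7 and 26.1 at day 7, and 22.9, 23.5, 24.3 and 24.6 at day 14. The libraries of day 3 stood above all others (log2 fold change 0.63 ± 0.064, adjusted p = 4.7e-12). At days 1, 7 and 14 Tfe3 was lower with TMM (-0.16, -0.26 and -0.32) and higher with totals (0.42, 0.51 and 0.40), and day 5 missed the threshold with TMM (log2 fold change -0.14 ± 0.067, adjusted p = 0.052) and was 0.50 with totals. Lamp1 (chr8:13159161-13175338, plus strand) stood at 768, 781, 785 and 794 CPM in control, 812, 826, 829 and 847 at day 1, 790, 792, 806 and 808 at day 3, 888, 912, 913 and 930 at day 5, 714, 719, 727 and 745 at day 7, and 504, 510, 518 and 521 at day 14. Its highest libraries were those of day 5 (log2 fold change 0.22 ± 0.019, adjusted p = 4.8e-14) and its lowest those of day 14 (log2 fold change -0.61 ± 0.02, adjusted p = 3.2e-30). With library totals Lamp1 was above control at days 7 and 14 (0.66 and 0.11). Lamp2 (chrX:38401357-38456454, minus strand), which is needed for fusion and for chaperone-mediated autophagy, stood at 162, 171, 172 and 176 CPM in control, 179, 180, 181 and 181 at day 1, 145, 147, 148 and 149 at day 3, 219, 222, 225 and 230 at day 5, 227, 231, 233 and 240 at day 7, and 226, 230, 239 and 242 at day 14. Days 1, 5, 7 and 14 lay above control, by 0.08 at day 1 and 0.46 ± 0.028 at day 14 (adjusted p = 7.7e-20). Day 3 lay below control at -0.21, which library totals turned to 0.17.

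Neighbouring days were then compared directly, without the control libraries. From day 1 to day 3, 22 members were higher and 5 lower, 27 in all (36.1%, 38.0% and 74.1% of all tested genes), with a median log2 change of 0.33 beside -0.04 over all genes. Between days 3 and 5, 11 were higher and 19 lower, 30 in all (38.2%, 39.2% and 77.3%), with medians of -0.10 and -0.01. From day 5 to day 7, 4 were higher and 23 lower, 27 in all (33.8%, 34.4% and 68.2%), with medians of -0.22 and 0.01. Between days 7 and 14, 11 were higher and 7 lower, 18 in all (26.0%, 25.6% and 51.6%), with medians of 0.04 and 0.01. With library totals these splits were 17 and 12 (24.8% and 51.0% of all genes), 18 and 15 (51.6% and 25.4%), 7 and 17 (43.1% and 26.6%), and 9 and 8 (21.0% and 30.5%).

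In the libraries labelled day 3 many members stood apart from both neighbouring days. A set of 18 of the 35 (51.4%) was higher at day 3 than at day 1 and lower at day 5 than at day 3, a pair of calls that 30.0% of all tested genes showed. Both comparisons share the day 3 libraries, so a shift in those libraries gives both calls. With library totals 15 of the 18 kept both calls (42.9% of members and 17.9% of all genes): Ulk1, Atg13, Atg101, Rubcn, Atg2b, Wipi2, Atg9a, Atg12, Atg16l1, Atg4b, Map1lc3b, Sqstm1, Optn, Tfeb and Tfe3. Optn changed by 1.23 ± 0.037 (log2 ± SE) from day 1 to day 3 and -0.98 ± 0.036 from day 3 to day 5, Sqstm1 by 1.07 ± 0.015 and -0.82 ± 0.015, and Tfeb by 0.70 ± 0.044 and -1.55 ± 0.048. Wipi1, Atg10, Map1lc3a, Lamp1 and Lamp2 (14.3% of members, 29.7% of all genes) showed the opposite pair of calls, for Map1lc3a -0.37 ± 0.024 and 0.85 ± 0.024. With totals 11 members showed that pair (31.4%, against 42.1% of all genes).

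Other transcripts also differed between day 3 and a neighbouring day, and their part in the pattern of the members was not tested. Genes of the fibre's denervation response were higher than control in 8 of 8 at days 1, 5, 7 and 14 and in 6 of 8 at day 3, and their summed level was 1162 to 1201, 395 to 407 and 1411 to 1437 CPM at days 1, 3 and 5. Skeletal muscle fibre markers summed to 115773 to 116538, 144942 to 148740 and 94314 to 95805 CPM at those days, and all 12 were lower than control at day 3. T and B lymphocyte markers were higher in 12 of 12 at days 1 and 5, which stood apart in this list. Their sum was 3.06 to 3.70 CPM at day 3, 3.62 to 6.32 CPM at day 7 and 4.49 to 6.76 CPM at day 14. The lymph node vessel genes Glycam1 and Madcam1 were at 0 in all control libraries. The 5 genes of that list summed to 228 to 248 CPM at day 1, 70.9 to 75.7 CPM at day 3 and 282 to 311 CPM at day 5. They summed to 115 to 124 CPM at day 7 and to 72.0 to 76.1 CPM at day 14, the latter close to day 3. Macrophage markers were higher than control in 10 of 10 at every day. They summed to 656 to 667 CPM in control, 1114 to 1160 CPM at day 3, 1843 to 1882 CPM at day 5 and 1178 to 1213 CPM at day 14. Erythroid and blood genes summed to 776 to 807 CPM in control and 2856 to 2968 CPM at day 1. They lay below control at days 3, 5 and 7 (187 to 193, 252 to 273 and 216 to 230 CPM). At day 14 they lay above it, at 2153 to 2203 CPM. Fibro-adipogenic progenitor markers summed to 5431 to 5560, 2412 to 2494 and 3666 to 3763 CPM at days 1, 3 and 5. Neutrophil markers summed to 37.9 to 41.5, 77.1 to 88.3 and 80.5 to 83.6 CPM at those days. In a fit without the day 1 and day 5 libraries, added after the data were seen, 20 members were higher and 11 lower at day 3 (36.4% and 35.2% of all genes in that fit), 11 and 22 at day 7 (42.5% and 35.9%), and 11 and 22 at day 14 (42.5% and 33.9%).

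**Figure D4:**
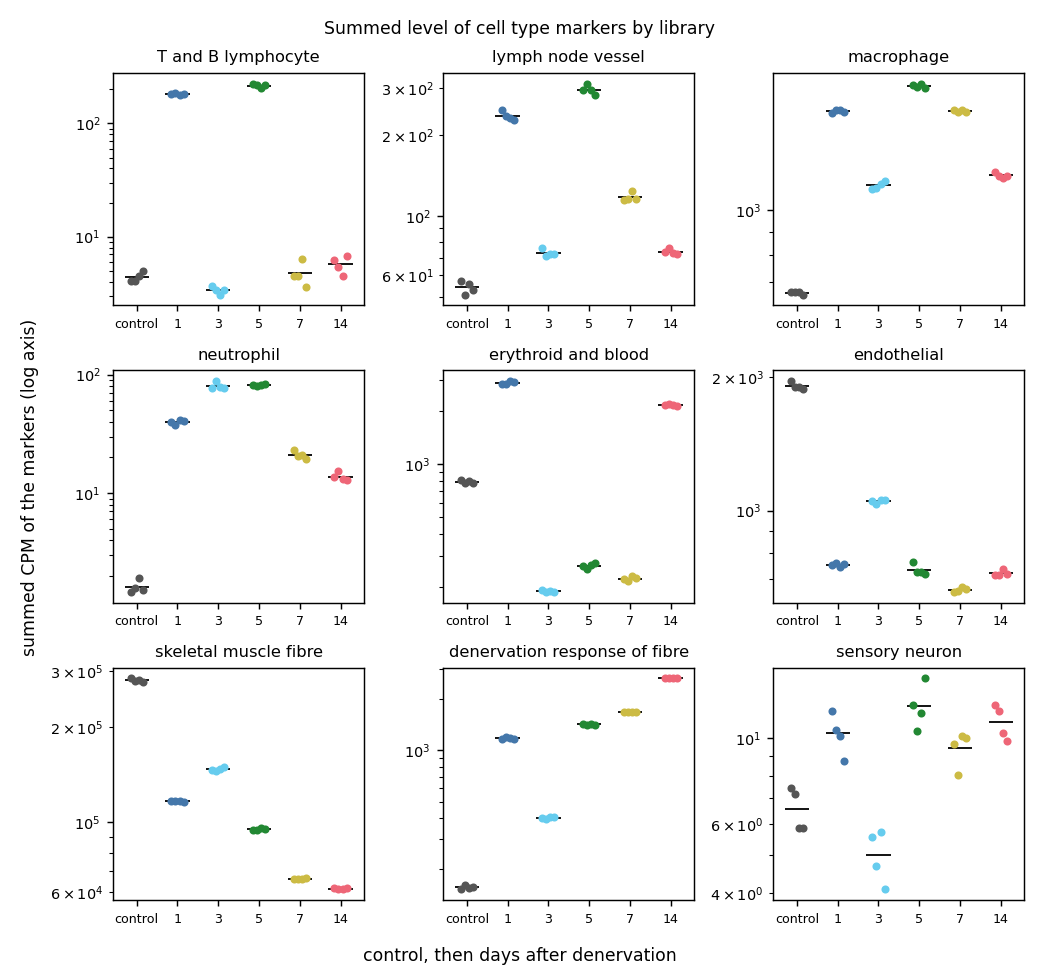
Summed CPM of 9 marker lists by library (points; bars are group means; log axes) in control and at each day after denervation. Lymphocyte markers stand at 180 to 224 CPM at days 1 and 5 and at most at 6.76 CPM elsewhere, and denervation response genes stand at 395 to 407 CPM at day 3, below the other denervated groups.

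Ratios between related members within a library do not depend on how libraries are scaled. The log2 CPM ratio was compared with control for 9 pairs at 5 days, 45 tests in all, each by an exact two-sided permutation test of 4 against 4 libraries whose smallest possible p is 0.0286. Of the 45, 41 passed after Benjamini-Hochberg adjustment (exact p = 0.029, adjusted p = 0.031 in each), and 6 pairs passed at all 5 days. Because each of the passing tests reached the smallest p, the sizes below carry the comparison.

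The ratio of Map1lc3a to Map1lc3b was -1.35 ± 0.06 in control (log2, mean ± SD, n = 4) and 0.19 ± 0.05, -1.01 ± 0.03, 0.53 ± 0.04, 0.95 ± 0.03 and 1.30 ± 0.04 at days 1, 3, 5, 7 and 14. It was above control at each day, by 6.26-fold at day 14 and 1.27-fold at day 3. The ratio of Ulk1 to Ulk2 fell from 1.91 ± 0.04 in control to 0.04 ± 0.06, 1.14 ± 0.07, 0.42 ± 0.07, 0.51 ± 0.05 and -0.07 ± 0.06. Gabarap over Gabarapl1 rose from -0.03 ± 0.03 to 1.85 ± 0.10, 0.93 ± 0.05, 1.01 ± 0.04, 2.11 ± 0.06 and 1.93 ± 0.07. These ratios were closest to control at day 3. Gabarapl1 over Gabarapl2 fell from 0.99 ± 0.06 to between 0.09 ± 0.06 at day 3 and -0.60 ± 0.07 at day 14.

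Tfeb lost ground to Tfe3 at all 5 days. Their log2 ratio was 1.44 ± 0.06 in control and 1.11 ± 0.10, 1.01 ± 0.08, 0.24 ± 0.15, -0.12 ± 0.10 and 0.47 ± 0.11 at the 5 days. Wipi1 over Wipi2 was -0.40 ± 0.12 in control, fell to -0.93 ± 0.08 at day 3 and was above control at the other days, up to 0.25 ± 0.06 at day 7. Atg2a over Atg2b also changed direction, from -0.13 ± 0.10 in control to 0.31 ± 0.06 at day 1 and -0.54 ± 0.08 at day 3, and did not pass at day 14 (exact p = 0.057, adjusted p = 0.06). Atg4a over Atg4b went from -1.0 ± 0.17 in control to 0.15 ± 0.04 at day 14, and did not pass at day 3 (exact p = 0.086, adjusted p = 0.088) or day 5 (exact p = 0.057, adjusted p = 0.06). Lamp1 over Lamp2 was 2.20 ± 0.04 in control and 2.20 ± 0.03 at day 1, a change of 0.00 (exact p = 1). It rose to 2.44 ± 0.03 at day 3 and fell to 2.02 ± 0.06, 1.64 ± 0.03 and 1.13 ± 0.05 at days 5, 7 and 14.

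**Figure D5:**
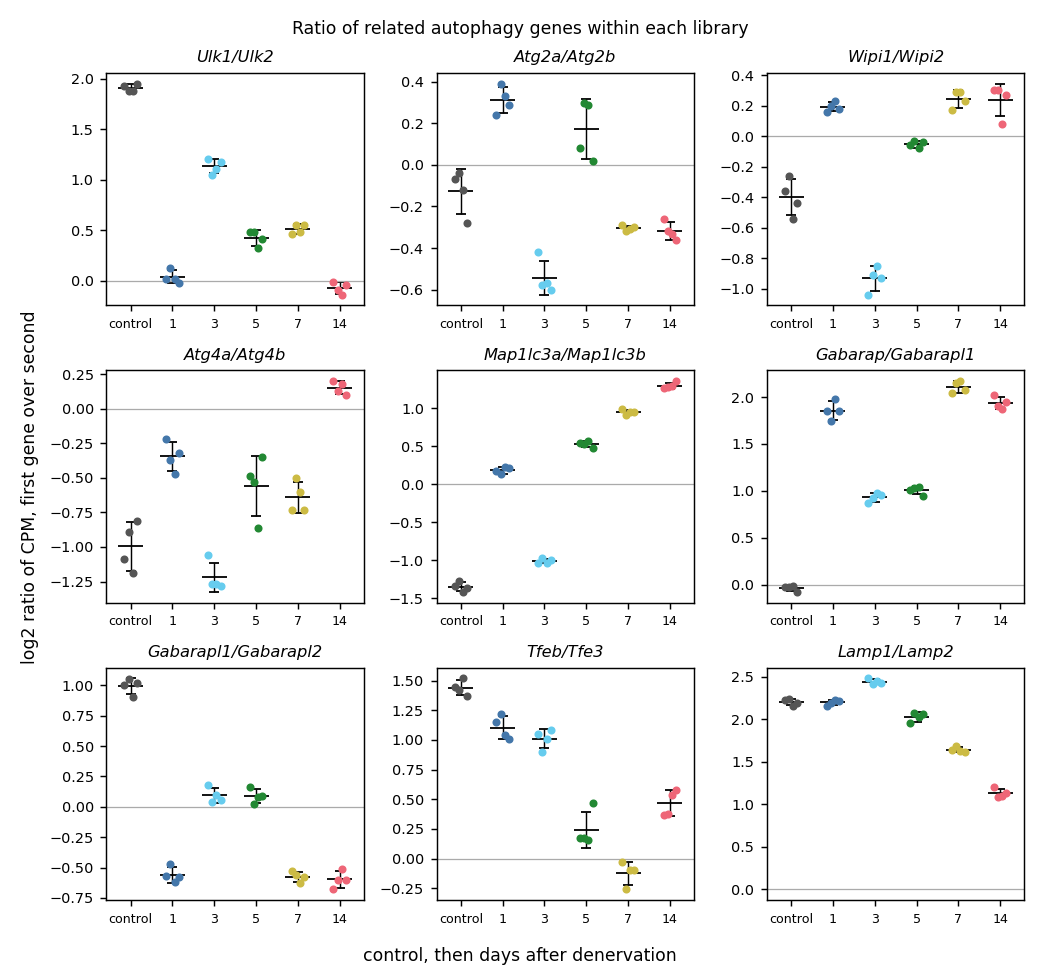
Log2 ratio of CPM of 9 pairs of related members within each library (points), with bars for the mean and SD of 4, in control and at each day after denervation; the grey line marks equal CPM where it falls within the axis. Map1lc3a over Map1lc3b runs from -1.35 in control to 1.30 at day 14, and Ulk1 over Ulk2 from 1.91 to -0.07.

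Levels of different genes were compared by TPM in the control libraries. Sqstm1 was the most abundant member at 1268 ± 8.75 TPM (SD, n = 4), followed by Lamp1 at 419 ± 4.60, Map1lc3b at 309 ± 8.13, Map1lc3a at 227 ± 5.97, Gabarap at 223 ± 1.70 and Gabarapl1 at 171 ± 6.91 TPM. The libraries of Map1lc3a and Gabarap overlapped in control. Below them came Gabarapl2 at 92.1 ± 3.53 and Ulk1 at 88.9 ± 1.75 TPM, whose libraries overlapped too. The conjugation enzymes lay low in the order, from Atg4b at 24.5 ± 4.79 TPM to Atg5 at 7.36 ± 0.298 TPM and Atg10 at 3.97 ± 0.453 TPM, the last of the 35. Of the 34 neighbours in this order, 22 overlapped in their control libraries, 2 of the first 11 and 20 of the other 23, so most ranks below the first 11 are not settled by these libraries. The lipid kinase genes ranged from Becn1 at 41.0 ± 7.19 TPM to Uvrag at 9.13 ± 0.338 TPM. At day 14 Map1lc3a stood first at 972 ± 13.9 TPM, above Sqstm1 at 776 ± 12.2 TPM.

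Libraries of a group lay close together, yet reads of some members may be shared with other genes. In the GENCODE M21 annotation of GRCm38, 12 members share exon bases with another gene on the opposite strand, among them Atg9a with Ankzf1, Map1lc3b with Zcchc14, Sqstm1 with Mrnip, Lamp1 with Grtp1 and Gabarapl1 with 1700101I11Rik. Atg9a also shares bases with Gm29253 on its own strand. The use of strand in counting is not given in the sources used here, so reads of such neighbours cannot be told apart from those of the members, and the values of these 12 are uncertain to that extent.

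The other genes of the pathway were read from 7 lists. Beside their counts stand the shares of all tested genes, which were 34.5 to 40.2% higher and 35.3 to 36.7% lower over the 5 days with TMM, and 54.9 to 74.4% higher and 11.7 to 18.2% lower with library totals. Lists as short as these often lie near those shares, and no list was tested as a set. The list of 11 other initiation and nucleation genes also holds genes of AMPK and mTORC1, which signal to ULK1. In it 2, 7, 2, 4 and 3 were higher and 6, 3, 6, 6 and 5 lower at days 1, 3, 5, 7 and 14, so day 3 held most higher calls with TMM. With library totals 6, 8, 10, 8 and 8 were higher, most of them at day 5. Prkaa2, a catalytic subunit of AMPK, fell from 253 ± 12.4 to 65.0 ± 3.08 CPM at day 14 (log2 fold change -1.96 ± 0.034, adjusted p = 1.8e-41). Rptor, the mTORC1 subunit Raptor, rose from 56.9 ± 1.25 to 149 ± 3.62 CPM at day 3 (log2 fold change 1.39 ± 0.038, adjusted p = 4.1e-33). The list of 14 genes for fusion of autophagosome and lysosome also counts the co-chaperone gene Bag3. In it 3, 8, 3, 3 and 3 were higher and 9, 3, 7, 10 and 9 lower, and 9, 12, 11, 10 and 9 were higher with totals. Bag3, the co-chaperone of chaperone-assisted autophagy in muscle, rose from 299 ± 7.23 to 646 ± 15.2 CPM at day 3 (log2 fold change 1.11 ± 0.025, adjusted p = 6.4e-36), and Epg5, a tether for fusion, fell from 114 ± 2.61 to 47.9 ± 3.40 CPM at day 14 (log2 fold change -1.25 ± 0.04, adjusted p = 1.6e-30).

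Other receptors, which include those for mitochondria and endoplasmic reticulum, leaned lower with TMM. Of 17, 3, 4, 4, 4 and 5 were higher and 10 were lower at each of the 5 days, whereas library totals gave 12, 11, 14, 12 and 13 higher. Stbd1, a glycogen-binding receptor, rose 8.04-fold at day 1, from 28.2 ± 2.28 to 226 ± 8.79 CPM (log2 fold change 3.01 ± 0.046, adjusted p = 4.4e-45). Retreg1, also called FAM134B, a receptor for endoplasmic reticulum, fell 7.84-fold by day 14, from 822 ± 18.1 to 105 ± 4.59 CPM (log2 fold change -2.97 ± 0.026, adjusted p = 3.7e-53). Of the 4 other conjugation genes, at most 1 was higher and at most 3 were lower at any day with TMM, and 2 to 4 were higher with totals. Atg4d stood at 27.2 ± 1.24 CPM at day 14 against 51.8 ± 1.18 CPM in control (log2 fold change -0.93 ± 0.052, adjusted p = 5.8e-21), and Atg16l2 at 4.10 ± 0.248 CPM at day 7 against 7.15 ± 0.950 CPM (log2 fold change -0.80 ± 0.14, adjusted p = 1.7e-06).

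In both lysosomal lists more genes were higher than lower at each day, though by 9 to 7 at day 14. Of 21 hydrolases found among 22 listed, 15, 10, 15, 14 and 9 were higher and 4, 7, 2, 6 and 7 lower at days 1, 3, 5, 7 and 14, with median log2 fold changes of 0.41, 0.07, 0.73, 0.28 and -0.03, and library totals gave 20, 19, 21, 19 and 19 higher. Ctss, the protease cathepsin S of macrophages and other antigen-presenting cells, stood at 178 ± 6.84 CPM at day 5 against 33.6 ± 0.999 CPM (log2 fold change 2.40 ± 0.044, adjusted p = 2.6e-41), and Gusb at 61.6 ± 0.967 CPM at day 7 against 21.7 ± 1.54 CPM (log2 fold change 1.50 ± 0.055, adjusted p = 1.1e-28). Of 22 genes of the lysosomal proton pump and membrane, 12, 11, 15, 12 and 9 were higher and 5, 3, 3, 4 and 7 lower, with 20, 19, 22, 21 and 21 higher on totals. Atp6v0d2, a proton pump subunit of osteoclasts and macrophages, stood at 2.90 ± 0.247 CPM at day 5 against 0.396 ± 0.104 CPM (log2 fold change 2.85 ± 0.4, adjusted p = 3.3e-10), and Npc1, the cholesterol exporter, fell to 61.3 ± 0.766 CPM at day 14 from 347 ± 10.5 CPM (log2 fold change -2.50 ± 0.029, adjusted p = 2.2e-48). Macrophage markers were higher than control at all 5 days, with sums of 656 to 667 CPM in control and 1629 to 1655, 1114 to 1160, 1843 to 1882, 1633 to 1652 and 1178 to 1213 CPM at days 1, 3, 5, 7 and 14, and their part in the lysosomal values was not tested.

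Of 18 transcriptional and signalling regulators of autophagy, 3, 4, 9, 4 and 4 were higher and 14, 11, 6, 12 and 11 lower, and library totals gave 9, 9, 13, 11 and 10 higher. Depp1, a FoxO target linked to autophagy, fell furthest of the named genes, from 368 ± 10.2 CPM in control to 2.29 ± 0.592 CPM at day 7 (log2 fold change -7.34 ± 0.11, adjusted p = 3.9e-53). Sesn1, which encodes the mTORC1 inhibitor sestrin 1, fell 6.61-fold at day 1, from 218 ± 4.18 to 33.0 ± 2.64 CPM (log2 fold change -2.73 ± 0.053, adjusted p = 1.3e-39). The 14 genes named from these lists kept the sign of their change with library totals.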

How the data were processed

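Per the file headers, the deposited table holds an expected count and a TPM value for every gene and library. An expected count is an estimate that can split an ambiguous read among genes, and 7.01% of the deposited count values (8.1% for the 35 members) were not whole and were rounded. How reads were aligned, quantified and assigned to a strand, and on which build, is not given in the sources used here. Coordinates are 1-based, from GENCODE M21 on GRCm38, which may not be the authors' build.

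edgeR 4.0.16 in R 4.3.3 was run with TMM scaling (factors 0.693 to 1.19) and its default filter, which left 14246 genes. All 24 libraries entered 1 quasi-likelihood fit, with 9 two-sided contrasts and an F test over the 6 groups. P-values were adjusted by Benjamini-Hochberg over all tested genes, with a threshold of 0.05, and ± beside a log2 fold change is its standard error. Ratios of related members used log2 CPM with a prior count of 2. Libraries of a group differed by more than counting noise (chi-square per gene 2.04 to 3.86 over 36 pairs) and had a common biological coefficient of variation of 0.0389. Deposited TPM served to compare genes.

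The members and gene lists were chosen with earlier results of these data known. One gene of the marker lists is not reported here and was left out of its list's sum. Values in every library are given for the 12 members with the widest range between group means and for both genes of each pair whose ratio passed. From each list of other pathway genes, the 2 with the largest called change at any day are named. Alternatives were DESeq2 size factors, library totals, DESeq2 1.42.0, other filters, a replicate block, fits of the compared groups alone and leaving out each library.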

Additional observations from a re-analysis of the deposited data

Results flagged for a closer look

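In 9 of the 210 groups of 4 libraries examined (35 members by 6 groups), 1 library lay far from the other 3 by Dixon's 95% criterion, which chance alone meets in about 1 group of 20. The library apart was the highest for Rb1cc1 in control (61.2 CPM, the others 56.6 to 57.1 CPM), Rubcn in control (52.2 CPM, the others 49.6 to 50 CPM), Atg4a at day 3 (31.6 CPM, the others 27.3 to 27.7 CPM) and Tfe3 at day 3 (47.4 CPM, the others 45.5 to 45.8 CPM). It was the lowest for Becn1 at day 3 (63.3 CPM, the others 65.8 to 66.1 CPM), Atg3 at day 1 (30.5 CPM, the others 32.5 to 32.8 CPM), Atg3 at day 5 (27.0 CPM, the others 30.0 to 30.5 CPM), Atg4b at day 1 (35.2 CPM, the others 37.3 to 37.7 CPM) and Tfeb at day 3 (85.4 CPM, the others 94.9 to 96.5 CPM).

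Between neighbouring days, 26 of 140 changes (18.6%, beside 8.61% over all tested genes) joined opposite calls against control, which share the control libraries, and each passed the direct test of the 2 days (log2 fold change of the later against the earlier day, edgeR adjusted p below 0.05). From day 1 to day 3 these were Atg13 1.14, Atg2b 1.09, Wipi2 0.92, Atg12 0.71, Atg16l1 0.86, Atg4b 0.85, Sqstm1 1.07, Nbr1 0.40, Optn 1.23, Tfeb 0.70, Tfe3 0.79 and Lamp2 -0.29. From day 3 to day 5 they were Atg13 -0.75, Rb1cc1 0.68, Uvrag 0.52, Atg2b -0.64, Wipi2 -0.62, Atg12 -0.67, Atg4b -0.92, Sqstm1 -0.82, Optn -0.98, Tfeb -1.55 and Lamp2 0.61. From day 5 to day 7 they were Rb1cc1 -0.36, Uvrag -0.92 and Lamp1 -0.33. The calls against control that these changes join depend on the scaling for the members named below.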

How the results depend on the processing

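Library totals alone, without TMM, changed the picture most. The split of higher and lower members became 22 and 11 at day 1, 28 and 5 at day 5, 22 and 10 at day 7 and 23 and 9 at day 14, and at day 3 the lower members became 5. Of 175 log2 fold changes (35 members by 5 days), 102 kept their direction and side of the threshold, 7 newly passed, 6 no longer passed and 60 turned from below to above control. The latter were, on the log2 scale, at day 1 Ulk2 0.03, Pik3c3 0.39, Uvrag 0.26, Atg2a 0.28, Wipi1 0.40, Atg12 0.37, Atg16l1 0.31, Atg10 0.52, Atg4b 0.41, Gabarapl2 0.42, Nbr1 0.27, Optn 0.11, Tfeb 0.09 and Tfe3 0.42, at day 3 Ulk2 0.07, Atg101 0.25, Pik3c3 0.18, Uvrag 0.02, Atg2a 0.31, Atg9a 0.06, Map1lc3b 0.35 and Lamp2 0.17, at day 5 Ulk2 0.24, Atg13 0.01, Atg14 0.22, Atg2b 0.36, Wipi1 0.51, Wipi2 0.16, Atg12 0.47, Atg16l1 0.56, Atg10 0.50, Atg4b 0.40, Gabarapl2 0.64, Sqstm1 0.26, Optn 0.43 and Tfe3 0.50, at day 7 Ulk2 0.19, Rb1cc1 0.55, Pik3c3 0.54, Uvrag 0.01, Atg2b 0.14, Wipi1 0.44, Atg12 0.71, Atg16l1 0.63, Atg4b 0.57, Gabarapl2 0.41, Tfe3 0.51 and Lamp1 0.66, at day 14 Ulk2 0.51, Atg101 0.03, Rb1cc1 0.51, Pik3c3 0.43, Uvrag 0.28, Atg2b 0.16, Wipi1 0.42, Atg16l1 0.68, Atg4b 0.33, Gabarapl2 0.43, Tfe3 0.40 and Lamp1 0.11. Without a filter Gabarapl2 at day 5 turned to 0.01. Leaving out 1 library turned 12 of 1400 values, with ranges over the libraries left out of 0.00 to 0.08 for Pik3c3 at day 5, -0.03 to 0.04 for Atg2a at day 5, -0.09 to 0.01 for Atg16l1 at day 14, -0.02 to 0.18 for Atg7 at day 3, -0.03 to 0.17 for Atg7 at day 14, -0.15 to 0.07 for Atg10 at day 1 and -0.03 to 0.02 for Gabarapl2 at day 5. None of these had passed the test. DESeq2, its size factors and fits of the compared groups alone turned none, and each moved 1 value past the threshold.

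Leaving out each library in turn gave 9 to 10 higher and 22 to 24 lower members at day 1, 17 to 19 and 10 to 12 at day 3, 11 to 13 and 16 to 17 at day 5, 10 to 11 and 22 to 23 at day 7, and 11 and 22 at day 14. Between neighbouring days it gave 26 to 28, 29 to 32, 24 to 27 and 16 to 19 called members, and 35 over the 6 groups. Without the day 1 and day 5 groups, a setting chosen after seeing the data, the test over the remaining groups called 35. Of the ratio tests, 39 to 42 passed with a library left out, 38 with TPM and 41 with a prior count of 0.5. The replicate numbers are not said to pair the libraries. Deviations of same-numbered libraries correlated at -0.0783 to 0.0792 over 36 pairs, 12 of them best with their own number. Such values cannot exclude pairing, and the replicate block changed no call of a member. Under pairing by number 0 of 45 ratios passed, because the smallest p of its 16 sign arrangements is 0.125. Depth limits Atg10, the member of lowest count.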
